A study of Homo sapiens with 4 samples.

Results

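The sites described here are 408 stretches of open chromatin that were open in control LM2 cells and nearly without signal after deletion of CECR2. They were chosen by their raw counts in these libraries: a peak on chromosomes 1 to 22 entered when the 2 sg1 libraries together held 30 counts or fewer and the 2 control libraries together held 60 or more. Of the 190348 peaks in the whole table, 94108 met the control part of this rule and are called eligible below, and 408 of these (0.434%) met both parts. The contrast between sg1 and control at the sites is therefore given as a description, with no test. The measurement was ATAC-seq, in which the transposase Tn5 cuts and tags open DNA, and a count is a cut inside a peak. LM2 is a human breast cancer line derived from MDA-MB-231 and selected for metastasis to the lung. The sg1 cells carried a CECR2 deletion made with guide sg1, in 2 libraries, and the control cells carried a nontargeting control guide, also in 2 libraries. All 4 libraries came from 50000 cells each, grown as monolayers under puromycin. No source says that the replicates were separate cultures, so the spread between them may be technical, and whether a group is 1 clone is not given.

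CECR2 is a bromodomain protein that works with ISWI chromatin remodellers, which slide nucleosomes. Open chromatin away from gene starts often marks enhancers, which bind transcription factors and act on genes at a distance, while open chromatin at gene starts marks promoters. NF-kB is a family of transcription factors that switches on inflammatory genes, many of which encode cytokines, chemokines and inhibitors of NF-kB itself.

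Without the first 250 kb of chromosome 1, which took 25.4% and 25.4% of the counts in sg1 and 18.0% and 17.9% in control, the sg1 libraries held 43519018 and 38924086 counts and the control libraries 21002477 and 15561701. The sg1 libraries together were 2.25 times as deep, so the thresholds of 30 and 60 counts stand at 0.364 and 1.64 CPM, which is the count scaled to the total of its library. An sg1 sum of 30 beside a control sum of 60 is thus 22.2% of the control level, the highest share the rule allows. All 12 genes of a basal mesenchymal marker list had an accessible gene end in every library, with medians of 30.4 and 31.4 CPM in sg1 and 28.4 and 29.2 CPM in control. Markers of other cell types were open at some gene ends as well, and none of these peaks was a near-lost site. Of 7 luminal markers 6 had a peak, ESR1 being the one without, with list medians of 8.72 and 7.69 CPM in sg1 and 5.20 and 4.44 CPM in control. Of 6 blood cell markers 4 had one, CD3E and SPI1 among them, with list medians of 0.983 and 0.850 CPM in sg1 and 0.948 and 1.04 CPM in control. Of 5 fibroblast and endothelial markers 2 had one, PDGFRB among them, and PECAM1 and CDH5 had none. These peaks describe open chromatin, not expression, and their part in the results was not tested. The 15 peaks within 100 kb of CECR2 included none of the sites, and the nearest site lay 7022 kb from the gene, so these sites do not check the deletion itself.

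The near-lost sites covered the promoter window of only 5 genes of the RefSeq table (GRCh38.p14), of which 2 encode proteins. No source used here names the build of the deposited positions; 71.4% of 15813 RefSeq gene starts had a peak within 1 kb, against 17.5% and 17.4% when peaks were moved by 100 kb either way, so this table was used to place sites. The sequences below are the 250 bases before the gene start, 5′ to 3′ on the strand of the gene, from RefSeq. Capitals mark matches, on either strand, to the NF-kB letters GGGA, any base, TT, any base, CC, or to the AP-1 letters TGANTCA. The first 3 are the windows covered by a near-lost site that hold such a match, unlike the covered windows that are not shown. They are SLAMF8, an immune cell surface receptor gene (site chr1:159826434-159826920), CXCL11, a chemokine gene (site chr4:76035897-76036317), and the long non-coding RNA gene LROMI1 (site chr17:14373640-14374276).
SLAMF8: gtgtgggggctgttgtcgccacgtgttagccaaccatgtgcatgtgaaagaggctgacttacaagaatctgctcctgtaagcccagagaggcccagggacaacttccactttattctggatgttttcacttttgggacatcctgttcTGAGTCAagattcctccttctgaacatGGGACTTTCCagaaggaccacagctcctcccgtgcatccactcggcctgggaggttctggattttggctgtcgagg
CXCL11: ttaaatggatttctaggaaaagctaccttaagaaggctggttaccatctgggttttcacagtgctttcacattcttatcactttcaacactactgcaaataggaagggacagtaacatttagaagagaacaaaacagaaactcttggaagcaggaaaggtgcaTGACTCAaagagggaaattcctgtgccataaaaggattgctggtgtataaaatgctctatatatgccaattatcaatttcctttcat
LROMI1: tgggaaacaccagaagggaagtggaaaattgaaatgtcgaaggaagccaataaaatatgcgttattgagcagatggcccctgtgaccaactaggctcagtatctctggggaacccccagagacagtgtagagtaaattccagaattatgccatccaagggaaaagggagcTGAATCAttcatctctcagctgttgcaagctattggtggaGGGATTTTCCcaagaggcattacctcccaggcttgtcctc
The other 2 are the promoters of CXCL8, which encodes the neutrophil chemokine interleukin-8, and of TNFAIP3, the gene of the NF-kB inhibitor A20. They are shown because near-lost sites lie at the 3′ ends of these genes while the peaks over the promoters changed far less.
CXCL8: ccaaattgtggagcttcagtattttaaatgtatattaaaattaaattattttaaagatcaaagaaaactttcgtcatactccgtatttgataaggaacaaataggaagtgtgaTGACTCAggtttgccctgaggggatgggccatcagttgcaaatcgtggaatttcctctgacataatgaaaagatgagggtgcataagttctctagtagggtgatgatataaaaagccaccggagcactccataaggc
TNFAIP3: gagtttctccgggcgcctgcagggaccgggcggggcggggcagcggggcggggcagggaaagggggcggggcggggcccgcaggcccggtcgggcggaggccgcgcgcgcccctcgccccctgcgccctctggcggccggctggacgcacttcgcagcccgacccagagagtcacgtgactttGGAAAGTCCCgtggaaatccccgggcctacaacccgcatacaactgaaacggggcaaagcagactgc
The SLAMF8 and LROMI1 windows each held 1 NF-kB match and 1 AP-1 match, and the CXCL11 window held 1 AP-1 match. The covered windows of 2 further long non-coding RNA genes, LOC101927450 and LOC124903299, held neither; LOC124903299 held 2 matches to the TEAD letters GGAATG. NF-kB matches stood in 1.26%, AP-1 matches in 6.59% and TEAD matches in 11.9% of all 34943 promoter windows of this length. These matches describe letters in 5 windows and show no binding. Only these exact letters were searched for, so a window without a match can still hold a looser form of the same site. Of the windows shown for contrast, CXCL8 held 1 AP-1 match and TNFAIP3 held 1 NF-kB match.

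The 408 sites were small peaks in control cells and held few counts in sg1 cells. The median site had 12 and 10 counts in the sg1 libraries and 44 and 33 in the control libraries, or 0.271 and 0.254 CPM in sg1 and 2.14 and 2.15 CPM in control. The highest sg1 value at any site, 0.610 CPM, lay below the lowest control value, 0.717 CPM, so the groups did not overlap at any of the 408 sites. Both sg1 libraries lay below both control libraries in CPM at 31.9% of the 184717 tested peaks; the rule used these counts, so nothing is read from the overlap at the sites. Log2 fold changes of sg1 over control ranged from -6.70 to -2.22 with a median of -3.08. The edgeR fit over all tested peaks called 16.8% lower and 11.5% higher (FDR of 0.05). It called all 408 sites lower, and DESeq2, which called 9.37% of all peaks lower, called 405 of them. The rule used the same counts, so nothing is read from these calls.

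**Figure D1:**
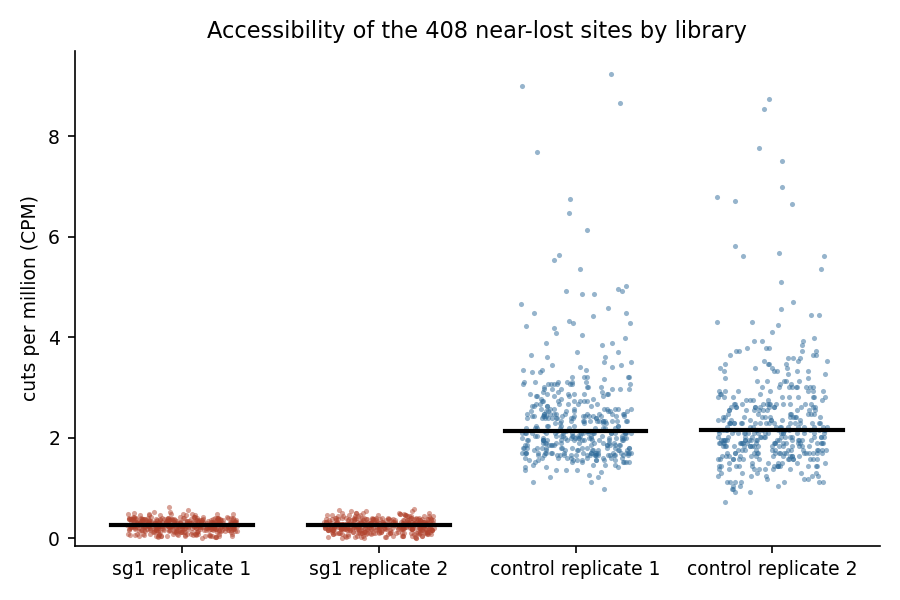
Normalised cuts (CPM) at each of the 408 near-lost sites (points, spread sideways at random) in the 2 sg1 libraries and the 2 control libraries, with the median as a black line. Medians were 0.271 and 0.254 CPM in sg1 and 2.14 and 2.15 CPM in control, and no sg1 point reaches the lowest control point.

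Some counts were left at every site. No level outside peaks was used here, and whether these counts differ from background was not tested. No site had 0 counts in both sg1 libraries, 5 had 0 in one of them, 9 had a sum of 5 or fewer and 32 a sum of 10 or fewer. The sg1 level was 11.99% of the control level at the median site. It was under 5% at 35 sites, 5% to 10% at 112, 10% to 15% at 137 and higher at 124. With so few counts the sg1 libraries often differed from each other: replicate 1 was over 2 times replicate 2 in CPM at 75 sites and the other way round at 62. In the control libraries the same held at 17 and 7 sites.

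Most sites were near the control threshold. The control sum was 60 to 99 at 322 sites, from 100 up to below 200 at 77 and 200 or more at 9, with a highest of 319. The rule took 1.41% of eligible peaks with a control sum of 60 to 99, 0.300% of those from there to below 200 and 0.0198% of those with 200 or more. A limit of 30 counts favours small peaks: 82 other eligible peaks were at or under the same 11.99% of the control level but had more than 30 sg1 counts, and their control sums were 124 to 1917 with a median of 243.5. Just inside the control threshold, a site in SUCLG2, a subunit gene of a mitochondrial enzyme, had 2 and 0 counts in sg1 and 41 and 19 in control (chr3:67386509-67386807). The other sites nearest to it, chr6:130561276-130561568 and chr9:131919825-131920105, had 5 and 6 and 10 and 1 counts in sg1, and 35 and 25 and 37 and 23 in control. Just outside stood chr21:36323078-36323247, with 5 and 0 counts in sg1 and 35 and 24 in control, and 2 rows with 5 and 3 and 9 and 1 counts in sg1 and 36 and 23 and 28 and 31 in control. At the sg1 threshold, the sites with the highest control sums inside had 25 and 5, 16 and 14, and 10 and 20 sg1 counts, while the 3 nearest rows outside had 21 and 10, 18 and 13, and 18 and 13. Sites and rows on either side of a threshold thus differed by 1 count: 83 sites had a control sum of 60 to 64 and 102 further rows one of 55 to 59, and 143 sites had an sg1 sum of 26 to 30 and 155 further rows one of 31 to 35.

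**Figure D2:**
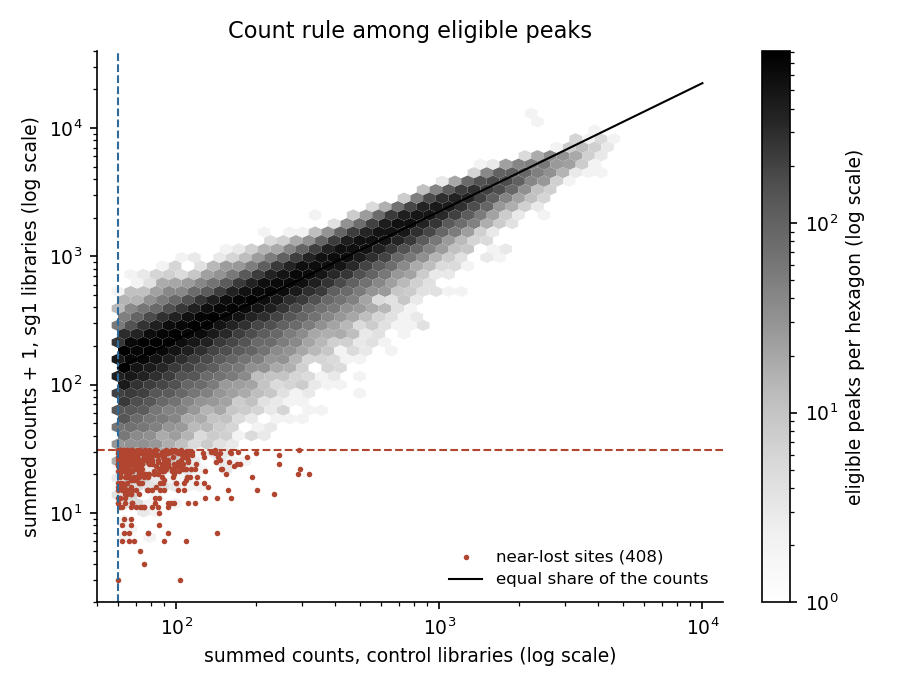
Summed counts of the 2 sg1 libraries plus 1 (vertical, log scale) against summed counts of the 2 control libraries (horizontal, log scale) for the 94108 eligible peaks, as hexagons shaded by number, with the near-lost sites in red. Dashed lines are the limits of 30 sg1 counts and 60 control counts, and the solid line is the count expected at an equal share of each group's counts in these peaks. The sites form the lower edge of the cloud and thin out to the right, with 9 at a control sum of 200 or more.

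The near-lost sites with most signal in control cells lay inside or between genes of varied function. The site with the highest control sum (chr2:112799206-112799814) lay 14.7 kb from IL1A, which encodes the inflammatory cytokine interleukin-1 alpha, and had 16 and 3 counts in sg1 and 185 and 134 in control. That is 0.219 ± 0.202 CPM in sg1 and 8.87 ± 0.179 CPM in control (SD, n = 2 each), a log2 fold change of -5.27 (SE 0.31). Next was a site inside KCNIP4, a potassium channel subunit gene (chr4:20991791-20992515), with 12 and 9 counts in sg1 and 190 and 104 in control (log2 fold change -4.99, SE 0.29). A site inside SLC41A2, a magnesium transporter gene (chr12:104930361-104931248), had 25 and 5 counts in sg1 and 178 and 115 in control. It was the longest of all sites, at 888 bp. A site inside GXYLT2, whose product adds xylose to Notch receptors (chr3:72973114-72973782), had 13 and 6 counts in sg1 and 158 and 131 in control. All 4 had both sg1 libraries under 0.57 CPM and both control libraries above 6.7 CPM.

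The other 8 of the 12 sites with the highest control sums had 13 to 28 counts in sg1 and 175 to 246 in control. They lay in ZCCHC7, IL1B and NEDD4L, which encode an RNA-processing factor, interleukin-1 beta and a ubiquitin ligase. Between protein-coding genes, a site lay 24.2 kb from HS3ST3B1, a heparan sulphate sulphotransferase gene, and covers the LROMI1 window shown above. Others lay 24.6 kb from ADO, a dioxygenase gene, and 38.6 kb from MREG, which acts in melanosome transport. The last of them lay 151.1 kb from UBE2E2, a ubiquitin-conjugating enzyme gene, and 234.8 kb from VRK1, a nuclear kinase gene. Their log2 fold changes ran from -5.37 at IL1B to -4.04 at ADO. Distance names a neighbour here and does not show which gene a site acts on.

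The most complete loss was at a site 571.9 kb from its nearest gene, ATP2B1, which encodes a calcium pump (chr12:90281245-90281637). It had 1 and 1 counts in sg1 and 50 and 53 in control, or 0.861% of the control level (exact 95% interval 0.103% to 3.19%, for counting error only). The site in SUCLG2 given above followed with 1.48%. A site 7.26 kb from VNN2, a pantetheinase gene (chr6:132736273-132736612), had 2 and 1 counts in sg1 and 43 and 32 in control. A site inside IL1B (chr2:112832000-112832246) had 2 and 4 counts in sg1 and 87 and 56 in control. A site just past TNFAIP3 (chr6:137883428-137883881) had 3 and 2 counts in sg1 and 50 and 59 in control. The remaining 3 of the 8 lowest shares, all 2.43% to 2.46%, were sites near DAPK2, a stress-linked kinase gene, in IL1B and near SPINT3, a protease inhibitor gene. Of these 8 sites, 2 lay in IL1B, as neighbours, and 1 at TNFAIP3. Both genes are on the NF-kB target list used below, which was written with earlier results of these data known. Listed targets were the nearest genes of 0.377% of all eligible peaks.

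Near-lost sites were placed away from gene starts. Only 4 of the 408 (0.980%, 95% Wilson interval 0.382% to 2.49%) lay within 1 kb of the start of a protein-coding gene, against 15.7% of the other eligible peaks. Part of that gap goes with peak size: among other eligible peaks with a control sum of 60 to 99 the share was 9.02%, beside 0.621% (interval 0.170% to 2.24%) of the near-lost sites in that range. Among other eligible peaks that edgeR called lower it was 4.31% (interval 4.05% to 4.59%), and among those called higher 33.3%. The 3′ ends of genes held 8 sites (1.96%, interval 0.997% to 3.82%), close to the 1.83% of other eligible peaks. A further 3 sites lay at a gene end whose strand is not in the table. Sites inside genes made up 44.4% (interval 39.6% to 49.2%), against 38.8% of other eligible peaks and 44.6% of those called lower. Sites over 50 kb from any protein-coding gene made up 25.5% (interval 21.5% to 29.9%), against 17.4% of other eligible peaks and 23.7% of those called lower. The intervals treat sites as independent, which neighbouring sites are not. None of the 82 equally low peaks that the limit of 30 counts left out lay at a gene start. Of these 82, 8 (9.76%) lay within 1 kb of a gene end of any kind, against 3.68% of the 408 sites.

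**Figure D3:**
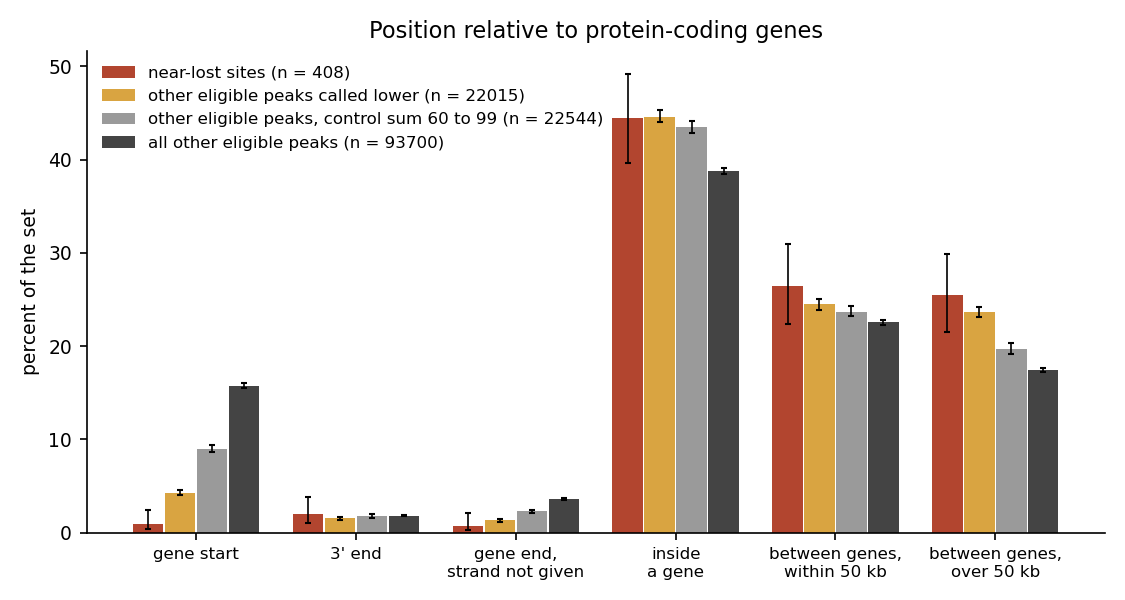
Share of each set of peaks (vertical, percent, with 95% Wilson intervals) in 6 positions relative to protein-coding genes, for the 408 near-lost sites and 3 sets of other eligible peaks. At gene starts the near-lost sites stand at 0.980%, below the other peaks called lower (4.31%), those of like control sum (9.02%) and all other eligible peaks (15.7%).

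The distance to genes showed the same placement. The median near-lost site was 34.3 kb from the nearest gene end, against 18.4 kb for other eligible peaks. Other eligible peaks called lower stood close to the sites, at 32.4 kb. At control sums of 60 to 99 the medians were 36.8 kb for the sites and 23.6 kb for other eligible peaks. The median distance to a gene start was 60.03 kb, against 32.9 kb, over chromosomes whose gene starts are in the table. More than 100 kb from any gene start lay 38.5% of the near-lost sites, 25.6% of other eligible peaks and 33.3% of those called lower. The sites were also short, with a median length of 339.5 bp (154 to 888 bp) against 530.0 bp for other eligible peaks. That difference went with control sum: at 60 to 99 counts the medians were 326.0 and 319.0 bp, and from 100 to below 200 they were 393.0 and 450.0 bp. The 82 equally low peaks left out by the limit, with a median control sum of 243.5, had a median length of 512.5 bp.

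The reverse rule gave fewer sites. At the same CPM limits (136 or more sg1 counts and 13 or fewer control counts), 114 of 93436 peaks were open in sg1 and nearly without signal in control. None of the 114 lay at a gene start (upper Wilson bound 3.26%), 3 lay at a gene end and 57 lay inside genes. Their median length was 373.5 bp. Both sets thus had few or no sites at gene starts. The share at gene starts among the 93436 peaks was not worked out, so the reverse set has no background beside it.

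The 15 sites within 1 kb of a gene end included 5 at listed NF-kB targets. They were at IL1B, CXCL8 with a pair of sites, TNFAIP3 and ICAM1. The list, used again below, was written with earlier results of these data known. That share was not worked out for eligible peaks at gene ends, so the count has no background beside it. At 3′ ends, the site in IL1B (chr2:112830048-112830466) had 5 and 8 counts in sg1 and 133 and 103 in control, and lay 0.297 kb from the end of the gene. Past the 3′ end of CXCL8 lay a pair of sites. The nearer, at 0.147 kb (chr4:73743863-73744078), had 10 and 6 counts in sg1 and 69 and 58 in control. The farther, at 0.534 kb (chr4:73744250-73744451), had 8 and 7 counts in sg1 and 66 and 66 in control. The site at TNFAIP3, given above, lay 0.116 kb past its 3′ end. In FBLN1, which encodes the matrix protein fibulin-1, a site at the 3′ end (chr22:45600871-45601099) had 4 and 1 counts in sg1 and 32 and 37 in control. In SH3GL3, an endophilin gene, such a site (chr15:83632407-83632823) had 11 and 2 counts in sg1 and 35 and 32 in control. SELENOK and UBE3C, which encode a selenoprotein and a ubiquitin ligase and complete the 3′ end sites, had sg1 sums of 6 and 27 and control sums of 66 and 63.

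At gene starts, the SLAMF8 site covered the promoter shown above and had 11 and 15 counts in sg1 and 76 and 51 in control (log2 fold change -3.48, SE 0.34). The CXCL11 site, which also lies inside ART3, had 18 and 10 counts in sg1 and 46 and 46 in control (log2 fold change -2.94, SE 0.37). A site at the start of ETV3L, an ETS family gene (chr1:157098937-157099404), had 13 and 10 counts in sg1 and 72 and 30 in control. A site 0.594 kb from the start of ICAM1, the adhesion molecule that leukocytes bind (chr19:10271714-10271906), had 17 and 13 counts in sg1 and 39 and 29 in control. With no strand in the table, sites lay at an end of IGSF3, an immunoglobulin superfamily gene, of PI3, which encodes the elastase inhibitor elafin, and of MMP1, an interstitial collagenase gene. These 3 had sg1 sums of 28, 26 and 18 and control sums of 161, 89 and 65.

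The largest chain of near-lost sites ran over the interleukin-1 genes. A chain joins sites with gaps of at most 100 kb. From IL1A towards IL37, which encodes an anti-inflammatory member of the family, 4 sites spanned 86.6 kb of chromosome 2 and summed to 34 and 24 counts in sg1 and 479 and 347 in control. The first lay 14.7 kb from IL1A, the next pair lay inside IL1B, and the last (chr2:112885484-112885824), 25.3 kb from IL37, had 11 and 9 counts in sg1 and 74 and 54 in control. Between them lay 17 other tested peaks, of which edgeR called 13 lower. One of these, next to the site at the end of IL1B, had as deep a log2 fold change (-5.28, SE 0.21), but its sg1 counts of 18 and 16 exceed the limit, beside 307 and 260 in control (chr2:112828911-112829854). The peak over the start of IL1B (chr2:112836466-112837227) had 120 and 156 counts in sg1 and 358 and 227 in control, a smaller loss (log2 fold change -2.29, SE 0.16, edgeR adjusted p = 2.42e-13). A pair of peaks about 70 kb into the chain had log2 fold changes of -0.0011 and 0.27 and did not pass.

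At CXCL8, 3 sites spanned 21.4 kb of chromosome 4. Besides the pair past the 3′ end, a site 17.3 kb before the gene (chr4:73723088-73723294) had 9 and 7 counts in sg1 and 37 and 35 in control. All 6 other tested peaks between them were called lower, with log2 fold changes of -2.63 to -0.44. The peak over the start, where the promoter sequence shown above lies (chr4:73740320-73740865), had 652 and 569 counts in sg1 and 398 and 310 in control. This was the smallest change of the 6 (log2 fold change -0.44, SE 0.10, edgeR adjusted p = 0.000792). The peak next to it (chr4:73740924-73741308), had 61 and 45 counts in sg1 and 120 and 94 in control (log2 fold change -2.24, SE 0.23).

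**Figure D4:**
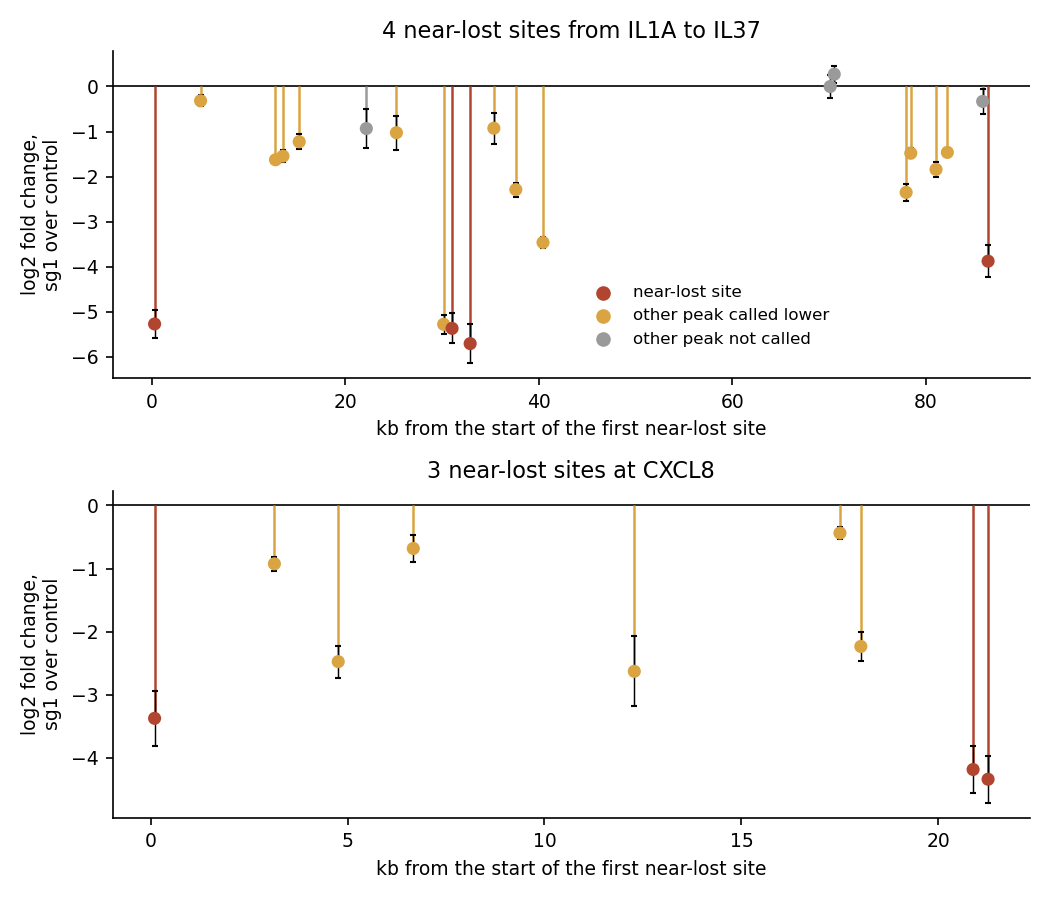
Log2 fold change of sg1 over control (vertical, with SE bars) of every tested peak between the first and last near-lost site of the chains at the interleukin-1 genes (top) and CXCL8 (bottom), against distance from the start of the first site (kb). Near-lost sites are red, other peaks called lower orange and peaks not called grey; the near-lost sites reach -5.70 and -4.34, while the peak over the CXCL8 start, 17.5 kb along, stands at -0.44.

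Of the other chains, all 14 were pairs. ETS1, which encodes an ETS family transcription factor, was the nearest gene of 4 sites in 2 pairs, the most of any gene; it and the pairs that follow were picked once their values had been seen. The pair over 5.72 kb summed to 32 and 25 counts in sg1 and 110 and 62 in control, and the 3 tested peaks between had log2 fold changes of -0.16 to 0.08, which did not pass. The pair over 2.55 kb summed to 33 and 18 counts in sg1 and 83 and 74 in control. The 1 tested peak between them (chr11:128574513-128575210) had 69 and 57 counts in sg1 and 163 and 144 in control and was called lower (log2 fold change -2.51, SE 0.20, edgeR adjusted p = 1.45e-11). Near SHOX2, a homeobox gene, a pair of sites 250.8 kb and more from the gene spanned 0.636 kb and summed to 7 and 20 counts in sg1 and 144 and 83 in control. Beyond SPRY2, which encodes an inhibitor of receptor tyrosine kinase signalling, a pair 1175 kb and more from the gene summed to 17 and 16 counts in sg1 and 125 and 58 in control. At NFKB1, which encodes the NF-kB subunit p105, 2 of 10 tested peaks between the sites were called lower. The matrix metalloproteinase genes MMP10 and MMP1 had a site each, which summed to 25 and 22 counts in sg1 and 72 and 69 in control.

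Most sites stood alone. Of the 408, 35 (8.58%) lay within 100 kb of another and 16 within 10 kb, while 373 formed a chain of their own. The median distance from a site to the next was 1785 kb. Proximity still went with a higher share. Of eligible peaks within 10 kb of a near-lost site 3.12% were near-lost themselves, against 0.419% of those farther away. Within 100 kb it was 0.892% against 0.414%. Some of the 16 sites were close pairs, such as those at DENND2D and near SHOX2, which spanned 0.667 and 0.636 kb. Such sites can share fragments, and the part of this in these shares was not tested. In the reverse set 4 of 114 sites had another within 100 kb. The share of eligible peaks that were near-lost was 0.185% on chromosome 17 (Wilson interval 0.0938% to 0.365%) and 0.762% on chromosome 13 (0.488% to 1.19%), with the other autosomes between. The median log2 fold change of all tested peaks was 0.16 on chromosome 17 and -0.11 on chromosome 13, though chromosomes 22 and 4, with near-lost shares of 0.680% and 0.692%, had medians of 0.10 and 0.06.

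Peaks beside a near-lost site were lower more often than distant peaks. Of 128 other tested peaks within 1 kb, edgeR called 78.9% lower and 2.34% higher, with a median log2 fold change of -1.93. A fragment can leave a cut in each of 2 close peaks, and the part of this was not tested. At 1 to 5 kb 34.0% of 356 peaks were lower, at 5 to 10 kb 33.2% of 361, at 10 to 50 kb 23.8% of 2758, and over 500 kb 15.8% of 150576. Higher calls ran the other way, with 4.78% at 1 to 5 kb and 11.9% over 500 kb. Around the reverse set the peaks within 1 kb were 70.7% higher (29 of 41). Of the tested peaks that flank a site on its left and right, both were lower at 67 sites (16.4%), 1 at 175 (42.9%) and neither at 166 (40.7%). For other eligible peaks called lower these shares were 10.1%, 38.7% and 51.2%, and for all other eligible peaks 4.38%, 26.3% and 69.3%. A flanking peak was higher at 47 sites (11.5%), against 12.7% of other eligible peaks called lower and 20.4% of all others.

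**Figure D5:**
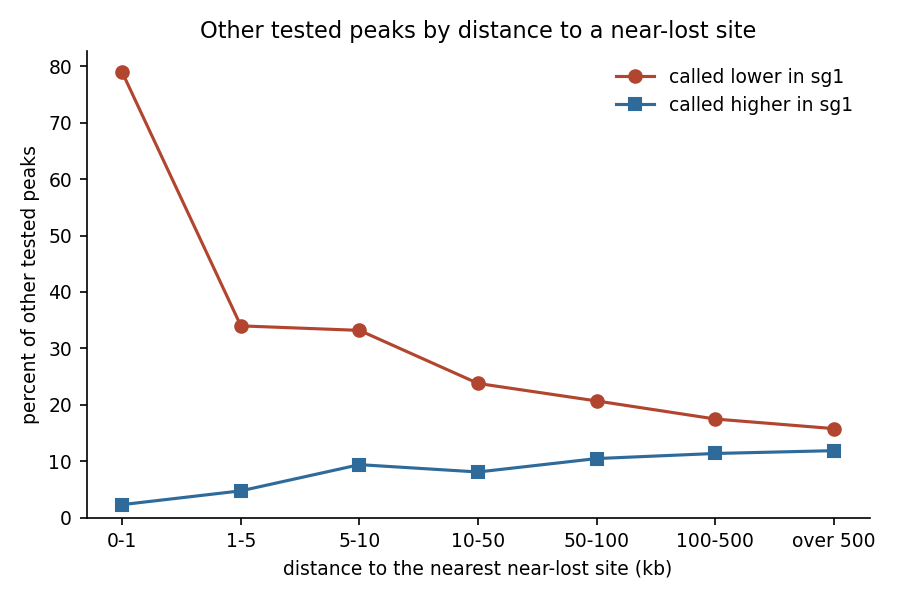
Share of tested peaks other than the near-lost sites (vertical, percent) that edgeR called lower or higher in sg1, by distance to the nearest near-lost site (horizontal, kb, unequal bins). Lower calls make up 78.9% within 1 kb and 15.8% beyond 500 kb, and higher calls 2.34% and 11.9%.

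The gene starts nearest to near-lost sites changed far less than the sites, which were chosen for their loss. For 243 genes with a near-lost site inside or nearest, another tested peak lay within 1 kb of the gene's start; 33 of these peaks (13.6%) were lower, 56 higher, and the median log2 fold change was 0.06. Over all 10462 genes with such a peak 7.10% were lower, 31.1% higher and the median was 0.16. At TNFAIP3 the start had 927 and 764 counts in sg1 and 503 and 292 in control (log2 fold change -0.12, SE 0.10, edgeR adjusted p = 0.386), beside -5.60 at the near-lost site. The log2 fold change at this start was -0.28 without control replicate 2 and 0.08 without control replicate 1. At NFKB1 it had 1458 and 1354 counts in sg1 and 651 and 514 in control (log2 fold change 0.05, SE 0.08, adjusted p = 0.675 with edgeR), beside -4.66 at a site inside the gene. At SLC41A2 and ZCCHC7 the start was higher, with log2 fold changes of 0.34 (SE 0.07) and 0.43 (SE 0.09), beside -4.49 and -4.40 at the sites. At KCNIP4, GXYLT2, NEDD4L and MREG the start did not pass, with log2 fold changes of -0.16 to 0.28; scaled by library size alone, GXYLT2 was called higher (0.32). At IL1B, BCL2A1 and ICAM1 edgeR called the start lower, with log2 fold changes of -2.29 (SE 0.16), -1.92 (SE 0.11) and -1.74 (SE 0.17).

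NF-kB target genes had near-lost sites more often than genes at large, though few sites belonged to them. Of 40 listed NF-kB targets, 10 had a site within 50 kb, against 2.70% of 19126 protein-coding genes. They were nearest to 12 sites, 2.94% of the 408, and 3.38% of the 355 eligible peaks nearest to them were near-lost, against 0.434% of all eligible peaks. The list was written with earlier results of these data known, so these counts are a description. Inside BCL2A1, which encodes a relative of BCL2 that blocks cell death (chr15:79965859-79966205), a site had 9 and 3 counts in sg1 and 94 and 68 in control (log2 fold change -4.94, SE 0.38). The NFKB1 site with the higher control sum (chr4:102524819-102525452) had 10 and 4 counts in sg1 and 100 and 57 in control. Sites 1.80 kb from NFKBIA, the gene of the NF-kB inhibitor IkB alpha, 5.18 kb from TRAF1, a TNF receptor adaptor gene, and 14.9 kb from NFKB2, an NF-kB subunit gene, had sg1 sums of 30, 13 and 27 and control sums of 83, 65 and 61. The TRAF1 and NFKB2 sites lie inside PHF19 and GBF1. IL1A, IL1B, CXCL8, ICAM1 and TNFAIP3, given above, complete the 10. Of 256 other tested peaks no more than 10 kb from an end of the 40 listed genes, edgeR called 113 (44.1%) lower and 19 higher, with a median log2 fold change of -0.30. Over all tested peaks that are no near-lost site it called 16.3% lower and 11.7% higher, and their median log2 fold change was 0.03.

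The interleukin-1 and chemokine lists share genes with this one, IL1A, IL1B and CXCL8 among them. Of 18 interleukin-1 family genes and receptors 3 (IL1A, IL1B and IL37) had a site within 50 kb, and of 27 chemokine genes 4 did, since CXCL9 and CXCL10 lie 28.4 and 12.4 kb from the CXCL11 site. The matrix protease and interferon lists share none of their sites with the NF-kB targets. Of 21 matrix proteases 6 (28.6%) had one, but MMP1, MMP3, MMP8 and MMP10 share 2 sites. The site nearer MMP10 had 14 and 15 counts in sg1 and 32 and 44 in control, and the site at MMP1 had 11 and 7 counts in sg1 and 40 and 25 in control. ADAM12 and ADAMTS6, which encode membrane-bound and secreted metalloproteases, had a site inside and one 39.6 kb away, with sg1 sums of 19 and 23 and control sums of 75 and 71. Of 25 interferon response genes 4 had a site within 50 kb. These sites lay 5.32 kb from XAF1, a cell death gene (sg1 sum 11, control sum 98), 38.2 kb from IFIT1, an antiviral gene (14 and 68), and 16.6 kb from RSAD2 and 48.2 kb from CMPK2 (25 and 64). The XAF1 and IFIT1 sites lie inside other genes, FBXO39 and SLC16A12. No site had an interferon response gene as its nearest gene, so none of the 101 eligible peaks nearest to these genes was near-lost. For matrix proteases 2.16% of 185 such peaks were, against 0.434% of all eligible peaks. By the interferon genes, at up to 10 kb, edgeR called 12.7% of 118 other peaks lower, against 16.3% of all tested peaks outside the sites. By the matrix proteases, at the same distance, it called 25.2% of 135 lower.

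The remaining lists can be read beside the same 2.70% of protein-coding genes with a site within 50 kb. There was none within 50 kb of the 23 growth factor and colony stimulating cytokines, the 14 complement genes, the 23 TGF-beta signalling genes, the 11 CECR2 and ISWI genes on autosomes or the 25 cell cycle genes. AP-1 and immediate early genes had 1 of 24 (4.17%; ATF3, a stress-induced factor; a site 14.4 kb away with 13 and 7 counts in sg1 and 50 and 52 in control). Adhesion and matrix genes had 3 of 32 (9.38%), which were ICAM1, FBLN1 and the integrin gene ITGB8. YAP and TEAD targets had 2 of 18 (11.1%), with a site inside WWTR1, the gene of the YAP relative TAZ (chr3:149551515-149551817), at 17 and 11 counts in sg1 and 92 and 55 in control. The EGF family had 1 of 15 (6.67%, NRG1), the lung metastasis genes 1 of 18 (5.56%, MMP1), protease inhibitors 1 of 17 (5.88%, PI3) and ribosomal proteins 1 of 30 (3.33%, RPL11). A share per gene leaves out how many eligible peaks lie by each gene. Of eligible peaks nearest to these genes, 0.213% were near-lost for AP-1 and 0.35% for lung metastasis, against 0.434% of all eligible peaks. The share was 0.568% for adhesion and matrix, 0.685% for YAP and TEAD and 0.926% for ribosomal proteins. For cell cycle genes it was 0.73% of 137 peaks, from 1 site over 50 kb away. EGF family genes stood at 1.04% and protease inhibitors at 1.59%. With 3 genes or fewer each, all these shares rest on few sites. In all, 30 of the 408 sites (7.35%) lay within 50 kb of a gene of any of the 17 lists. That share was not worked out for eligible peaks, so it has no background beside it. The 408 sites had 383 different nearest genes, of which 362 had 1 site, 18 had 2 and 3 (ETS1, CXCL8 and SHOX2) had more.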

How the data were processed

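Open chromatin was measured by ATAC-seq in 4 libraries. The authors deposited raw counts of cuts per peak for merged peaks, and a peak list with the same positions for all 190348 peaks. Per the file headers, featureCounts 1.6.0 counted cut-site alignment files as single ends, so 1 fragment can count once per end. The submitters' processing notes name MACS2 2.2.4, deepTools 3.1.3, DESeq2 1.32, Trimmomatic 0.39, Bowtie2, CASAVA and SAMtools; no source used here gives their roles, duplicate removal or the genome build. Peaks starting in the first 250 kb of chromosome 1 (109 peaks) were left out of library sizes, tests and sites.

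Counts were tested with edgeR 4.0.16 (R 4.3.3; filterByExpr, TMM factors of 0.981 to 1.02, quasi-likelihood F test on group, Benjamini-Hochberg FDR of 0.05) over 184717 peaks, and with DESeq2 1.42.0 as an alternative; the script was tested on simulated data. CPM values use TMM-scaled library sizes; percent of control uses kept counts.

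Genes came from a RefSeq table (GRCh38.p14). Gene starts and strand came from its promoter windows, which 15843 of 20037 protein-coding genes have, none of them on chromosome 8. A gene end is within 1 kb of either end. The motif search, planned for the sites, was run in promoter windows because no genome of the build was used here. Site members and the 17 gene lists (386 entries, 357 different genes) were chosen with earlier results of these data known. Named sites are the 12 with the highest control sum, the 8 with the lowest share of control, chains of 3 or more, the top 12 at gene ends, up to 3 per list and those nearest each threshold; others complete a count or were chosen after their values were seen. Calculations used Python 3.11.15, pandas 2.3.3, numpy 2.4.6 and scipy 1.17.1, and figures matplotlib 3.10.9.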

Additional observations from a re-analysis of the deposited data

How the results depend on the processing

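Counts of 30 or fewer limit what can be said of a single site, intervals cover counting error only, and 2 libraries a group give little hold on the spread. All 10 alternative fits and left-out libraries called 405 to 408 of the 408 sites lower (407 without control replicate 1, down to 405 with DESeq2). The number of peaks called over the whole table moved with DESeq2, to 17818 lower and 8283 higher. Leaving out 1 library gave 18888 to 29467 lower and 11147 to 20243 higher, the lowest without sg1 replicate 2; without sg1 replicate 1 it was 19013 and 11524. With the replicate block, 30358 were lower, 21218 higher and all 408 sites lower; the numbers did not pair the libraries (correlation of the deviations of replicate 1 between groups, -0.000258). The number of sites depends on the thresholds: 1220 at a control sum of 40 or more, 86 at 100 or more, 156 at an sg1 sum of 20 or fewer, 737 at 40 or fewer, and 155 when the CPM thresholds were asked of each library; leaving out 1 library gave 419 to 480 sites, which held 77.7% to 84.8% of the 408. The share of sites within 100 kb of another was 15.8%, 4.49% and 13.4% at a control sum of 40, an sg1 sum of 20 and an sg1 sum of 40, 5.39% and 12.01% at distances of 50 and 200 kb, and 7.33% to 10.3% with 1 library left out. The share at a gene end was 8.14% at a control sum of 100, 6.13% within 2 kb, 8.58% with the ends of all genes, and 2.84% to 3.40% with 1 library left out; gene starts alone gave 0.980% and 3′ ends alone 1.96%, both chosen after seeing the data, as was adding chromosome X (421 sites). The cause of these moves was not tested, except that a stricter or looser threshold takes fewer or more sites by construction. In alternatives chosen after seeing the data, 10 to 13 of the other peaks in the interleukin-1 chain, 4 to 6 in the CXCL8 chain and 83 to 109 of those within 1 kb of a site were called lower. No called result reversed in these alternatives.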

Other observations

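On chromosome X, which the rule leaves out, 13 peaks met the same count thresholds. The one with the highest control sum, 241.9 kb from KRABD4, had 11 and 12 counts in sg1 and 58 and 47 in control. The deepest, 498.3 kb from DIPK2B, had 6 and 1 counts in sg1 and 65 and 28 in control (log2 fold change -4.86, SE 0.51).

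In the reverse set, open in sg1 and nearly without signal in control, the site with the highest sg1 sum lay 33.6 kb from MUCL1, a secreted glycoprotein gene with mammary expression, and had 198 and 197 counts in sg1 and 11 and 2 in control (chr12:54892038-54892572). A site inside TRERF1, a zinc finger transcription factor gene, had 169 and 131 counts in sg1 and 2 and 5 in control. A site inside PLEKHM3 had 149 and 134 counts in sg1 and 5 and 0 in control. All 3 had both sg1 libraries above 3.3 CPM and both control libraries under 0.54 CPM. These were taken by their values, as a description.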
